A study of Rattus norvegicus with 48 samples.

Results

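Pdk4 and Slc2a4 are 2 genes with roles in how a cell takes up and uses glucose, and their transcripts were followed in the fat of exercised and sedentary rats. They were chosen by their Ensembl IDs, ENSRNOG00000009565 for Pdk4 and ENSRNOG00000017226 for Slc2a4, which are 2 of the 23481 gene rows of the deposited count table. Both rows passed the filter on low counts in every fit. RNA was sequenced from visceral adipose tissue (VAT) and subcutaneous adipose tissue (SAT) of male adolescent rats, 24 h after their last session, on postnatal day 61. The groups were late active phase exercise (LAE), late active phase control (LAC), early active phase exercise (EAE) and early active phase control (EAC), with 6 rats in each and 48 libraries over both depots. The series' design names zeitgeber times 13 and 23 (hours from lights on), taken here as the early and the late phase, and the controls were sedentary. No genetic change, drug or diet is given for any group in the labels. The tissue labels could not be checked against marker genes, because no table at hand pairs the other Ensembl IDs with symbols.

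Pyruvate dehydrogenase is the mitochondrial complex that commits pyruvate, the end product of glycolysis, to oxidation or, in fat, to fatty acid synthesis. Pdk4 encodes pyruvate dehydrogenase kinase 4, which phosphorylates the complex and switches it off, so that glucose carbon is spared while fatty acids are burned; its transcript is known to climb in fasting and under glucocorticoids and PPAR activators and to be held down by insulin. Slc2a4 encodes GLUT4, the transporter that insulin moves to the surface of fat and muscle cells to let glucose in. In adipocytes it is part of the mature programme, and its level falls in insulin resistance. The transcripts report on capacity only, since both proteins are also controlled after translation.

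For Pdk4 the promoter table of RefSeq (build GRCr8) holds the start of the gene, and the 250 bases before it are shown because Pdk4 is a textbook target of hormone and fasting signals. The window is chr4:34568330-34568579 on the minus strand, written 5′ to 3′ along the gene. The counts were made with build rn6, and no position was carried from one build to the other.
Pdk4 promoter: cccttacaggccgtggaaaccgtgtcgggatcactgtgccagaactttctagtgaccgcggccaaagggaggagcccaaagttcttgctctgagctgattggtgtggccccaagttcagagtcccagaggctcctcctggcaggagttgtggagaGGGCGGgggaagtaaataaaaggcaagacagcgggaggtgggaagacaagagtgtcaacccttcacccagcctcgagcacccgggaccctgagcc
The capitals mark a GC-box, GGGCGG, whose first base lies 95 bases before the start. Searching both strands, 30.5% of 33469 promoter windows of the same length hold that motif. The other motifs searched were the E-box CACGTG, the D-box TTATGNAA, the nuclear receptor half-site AGGTCA, the glucocorticoid receptor half-site AGAACA and the forkhead motif GTAAACA. Each has 0 matches in this window, and they occur in 5.59%, 3.28%, 14.1%, 17.5% and 3.21% of all windows in that order. The window was 59.2% G or C, against a median of 51.2% over all windows.

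Library totals lay between 13163675 and 17890033 estimated counts. Pdk4 had 82 to 1212 counts and Slc2a4 794 to 11896, so counting error was at most 11% of a Pdk4 value and 3.55% of a Slc2a4 value, which covers counting error only. Levels are in CPM, each count taken relative to its library's total, on library sizes scaled by edgeR's TMM method over all 48 libraries. In 4 libraries the median rank correlation with the other libraries of the depot lay over 5 median absolute deviations below the depot's median: SAT LAE replicates 4 and 6 (0.828 and 0.846, against 0.956 to 0.98 in the other 22), VAT EAE replicate 3 and VAT EAC replicate 5 (0.95 and 0.958, against 0.976 to 0.984). These are called atypical, and each result that rests on them is given with and without them. Batch, extraction and run order are not given in the labels.

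Slc2a4 was higher in VAT than in SAT in sedentary and in exercised rats alike. No label pairs the depots by rat, so same-numbered libraries of a group were taken as 1 rat. On that pairing Slc2a4 was higher in VAT than in SAT in each of the 24 rats. The ratio was 1.27 at the lowest, 2.52 at the median and 17.3 at the highest. The ratios of 17.3 and 11.3 belong to LAE replicates 4 and 6, whose SAT libraries are the atypical pair. The SAT library of LAE replicate 4 also did not match the VAT library of its own number best. The highest ratio elsewhere was 4.57, in EAE replicate 1. In VAT of sedentary rats its level was 301, 540 and 651 CPM (lowest, median and highest) in LAC and 216, 424 and 737 CPM in EAC. In SAT of sedentary rats it was 125, 219 and 292 CPM in LAC and 91.5, 196 and 302 CPM in EAC. The late controls of the 2 depots did not overlap, while the early controls did. In VAT of exercised rats it was 479, 743 and 825 CPM in LAE and 270, 433 and 546 CPM in EAE. In SAT of exercised rats it was 42.2, 263 and 458 CPM in LAE and 90.3, 185 and 271 CPM in EAE. In LAE all 6 VAT libraries lay above all 6 SAT libraries, and in EAE 5 of 6 did. In bulk tissue, fewer cells of a type and less RNA per cell cannot be told apart, so a depot difference may be of either kind.

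**Figure D1:**
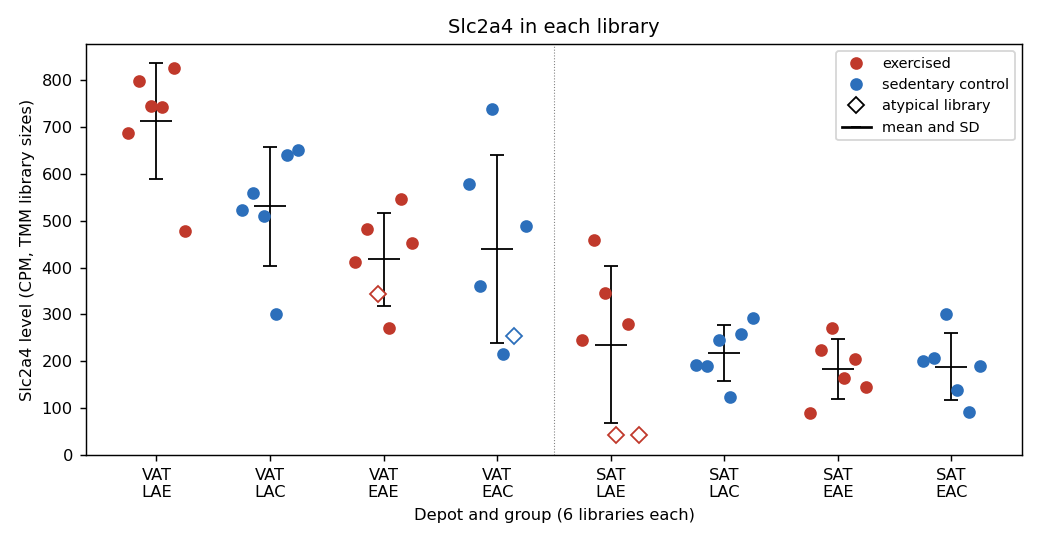
Slc2a4 level in CPM (vertical axis) of each library, by depot and group (horizontal axis, 6 libraries each). Points are libraries, open diamonds are atypical libraries, and the bar is the mean with its SD; the 6 VAT LAE libraries lie between 479 and 825 CPM, and the atypical pair of SAT LAE at 42.8 and 42.2 CPM.

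In sedentary rats VAT exceeded SAT 2.38-fold for Slc2a4 (log2 1.25 ± 0.26 SE, adjusted p = 1.49e-04, edgeR's quasi-likelihood test with Benjamini-Hochberg adjustment over 14693 genes). In exercised rats the ratio was 2.62-fold (log2 1.39 ± 0.26 SE, adjusted p = 3.24e-05, edgeR). Without the atypical libraries the log2 differences were 1.31 ± 0.19 and 1.16 ± 0.20. The main fits of both depots took no account of libraries from the same rat. With the rat as a block the log2 differences were 1.24 ± 0.21 in sedentary rats and 1.64 ± 0.22 in exercised rats. Such a call was common, since 43.3% of the genes tested differed between the depots in sedentary rats and 50.3% in exercised rats. Of the 2 members 1 was called in sedentary rats and 2 in exercised rats.

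For Pdk4 the depots overlapped in every group. In VAT of sedentary rats its level was 6.94, 11.2 and 38.3 CPM (lowest, median and highest) in LAC and 7.54, 8.06 and 11.6 CPM in EAC. In SAT of sedentary rats it was 9.37, 11.9 and 18 CPM in LAC and 10.6, 13.7 and 16.9 CPM in EAC. The VAT and SAT ranges overlapped in both phases. In EAC 5 of 6 VAT libraries lay below every SAT library, and in LAC 2 lay below and 2 above every SAT library. The fitted VAT to SAT ratio of sedentary rats was 0.907 with a 95% interval from 0.61 to 1.35 (log2 -0.14 ± 0.28 SE, adjusted p = 0.724, edgeR). Without VAT LAC replicate 4 the log2 difference was -0.37 ± 0.27 (adjusted p = 0.279, edgeR). In VAT of exercised rats it was 6.1, 10.4 and 23.5 CPM in LAE and 10.6, 13.2 and 20.5 CPM in EAE. In SAT of exercised rats it was 8.02, 14.1 and 65.4 CPM in LAE and 12, 16.8 and 34.3 CPM in EAE. The top of the SAT LAE range came from the atypical pair. Pdk4 was lower in VAT than in SAT of exercised rats by 1.76-fold (log2 -0.82 ± 0.28 SE, adjusted p = 0.0149, edgeR), a call that did not hold with the rat as a block (log2 -0.63, adjusted p = 0.0524), with limma voom (log2 -0.28, adjusted p = 0.41), without SAT LAE replicate 4 (log2 -0.59, adjusted p = 0.0623) or without all atypical libraries (log2 -0.19 ± 0.25, adjusted p = 0.547). With all libraries, Pdk4 was higher in VAT than in the SAT of the same rat in 5 of 24 rats. All 6 EAE rats and all 6 EAC rats had less Pdk4 in VAT than in SAT, while 2 of 6 LAE rats and 3 of 6 LAC rats had more.

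**Figure D2:**
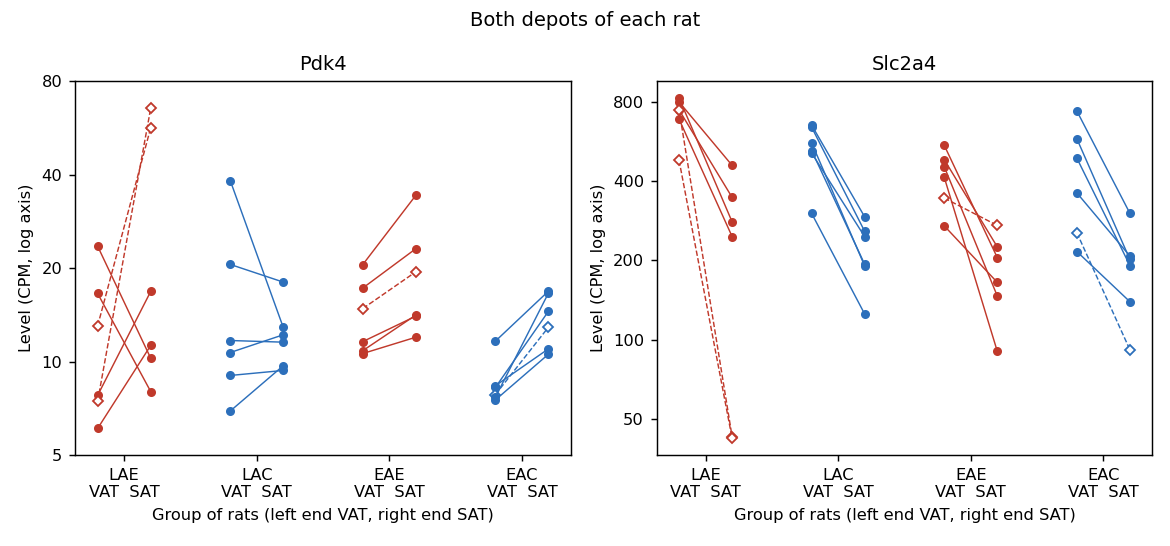
Level in CPM (vertical log axis) of Pdk4 (left) and Slc2a4 (right) in VAT and SAT of each rat, joined by a line, by group (horizontal axis). Same-numbered libraries of a group were taken as 1 rat. Open diamonds and dashed lines mark rats with an atypical library in either depot; for Slc2a4 all 24 lines run down from VAT to SAT, with the smallest ratio at 1.27.

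Whether the phase difference itself differed between the depots, taken over both activities, was tested as an interaction. For Pdk4 it was 0.18 ± 0.40 (log2, SE; adjusted p = 0.85, edgeR) and for Slc2a4 0.24 ± 0.37 (adjusted p = 0.758, edgeR), so 0 of 2 members passed, where 6.83% of all genes did. Neither was at an unadjusted p under 0.05, and neither was called by DESeq2 or limma voom. Without the atypical libraries the Pdk4 depot by phase interaction was 0.82 ± 0.34 (unadjusted p = 0.0214, adjusted p = 0.183, edgeR). Late exercise was compared between the depots in the same way, with -1.58 ± 0.57 for Pdk4 (unadjusted p = 0.00763, adjusted p = 0.166, edgeR) and 0.31 ± 0.52 for Slc2a4 (adjusted p = 0.799, edgeR). This test called 0% of all genes and neither member by DESeq2 or limma voom. Its Pdk4 value was -0.31 ± 0.48 without the atypical libraries. With the rat as a block it was -1.03 ± 0.53 for Pdk4 (unadjusted p = 0.0661, adjusted p = 0.321, edgeR). For Slc2a4 the block gave 0.74 ± 0.44 (adjusted p = 0.37, edgeR).

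The phase comparison asked whether late rats differed from early rats. Tissue was taken 24 h after the last session. In exercised rats the hour of exercise and the hour of collection therefore changed together and cannot be told apart. In VAT Slc2a4 was higher in late exercised rats, at 712 ± 124 CPM in LAE, against 418 ± 98.9 CPM in EAE (SD, n = 6 each). The LAE libraries were at 686, 798, 744, 742, 825 and 479 CPM, and the EAE libraries at 413, 482, 344, 270, 546 and 453 CPM. Of the LAE libraries 5 lay above all EAE libraries, and replicate 6 fell inside their range. The difference was 1.69-fold, with a 95% interval from 1.2 to 2.39 (log2 0.76 ± 0.24 SE, adjusted p = 0.027, edgeR). It was 1 of 2 members called, where 21% of all genes were. Without the atypical EAE replicate 3 and EAC replicate 5 it was 0.70 ± 0.24 (adjusted p = 0.0374, edgeR). The adjusted p lay above 0.05 when any of 4 libraries was left out alone, at 0.0519 without EAE replicate 3, 0.0695 without EAE replicate 4, 0.0543 without LAE replicate 2 and 0.0575 without LAE replicate 5, with log2 differences of 0.65 to 0.72.

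In sedentary rats the VAT levels of Slc2a4 averaged 530 ± 127 CPM in LAC and 439 ± 200 CPM in EAC. That difference did not pass (log2 0.27 ± 0.24 SE, 95% interval -0.23 to 0.76, adjusted p = 0.541, edgeR). A pass in exercised rats and none in sedentary rats does not show that they differ: the interaction of exercise with phase was 0.49 ± 0.34 for Slc2a4 in VAT (adjusted p = 0.818, edgeR). For Pdk4 in VAT of sedentary rats the means were 16.2 ± 11.8 CPM in LAC and 8.56 ± 1.55 CPM in EAC. LAC replicate 4 held 38.3 CPM and replicate 5 20.6 CPM, while the other 4 late controls lay between 6.94 and 11.7 CPM. The log2 difference of 0.92 ± 0.36 had an unadjusted p of 0.0176 and did not pass (adjusted p = 0.105, edgeR), and without LAC replicate 4 it was 0.45 (adjusted p = 0.408). Of the members 0 of 2 passed in sedentary VAT, where 11.3% of all genes did, and neither was called by DESeq2 or limma voom. In exercised VAT Pdk4 averaged 12.4 ± 6.74 CPM in LAE and 14.3 ± 4.02 CPM in EAE (log2 -0.22 ± 0.35, adjusted p = 0.713, edgeR).

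In SAT neither member passed for phase. Slc2a4 averaged 217 ± 59.8 CPM in LAC and 189 ± 70.9 CPM in EAC (log2 0.20 ± 0.44 SE, adjusted p = 0.882, edgeR). Pdk4 averaged 12.3 ± 3.13 CPM in LAC and 13.8 ± 2.72 CPM in EAC (log2 -0.16 ± 0.42, adjusted p = 0.909, edgeR). Both pairs of groups overlapped, and 0 of 2 members were called where 3.22% of all genes were, with neither at an unadjusted p under 0.05 and neither called by DESeq2 or limma voom. In exercised rats Slc2a4 averaged 236 ± 166 CPM in LAE and 184 ± 63.7 CPM in EAE (log2 0.35 ± 0.44, adjusted p = 0.598, edgeR). Pdk4 averaged 28.1 ± 25.8 CPM in LAE and 19.5 ± 8.34 CPM in EAE (log2 0.52 ± 0.41, adjusted p = 0.392, edgeR). Again 0 of 2 were called, where 17.3% of all genes were, by edgeR as by DESeq2 and limma voom. These values turned on the atypical pair: without it Slc2a4 averaged 333 ± 93.5 CPM in LAE (n = 4) and its log2 difference from EAE was 0.86 ± 0.29 (unadjusted p = 0.00805, adjusted p = 0.0605, edgeR). Pdk4 then averaged 11.6 ± 3.74 CPM in LAE and its difference changed sign, to -0.75 ± 0.27 (unadjusted p = 0.0102, adjusted p = 0.07, edgeR).

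**Figure D3:**
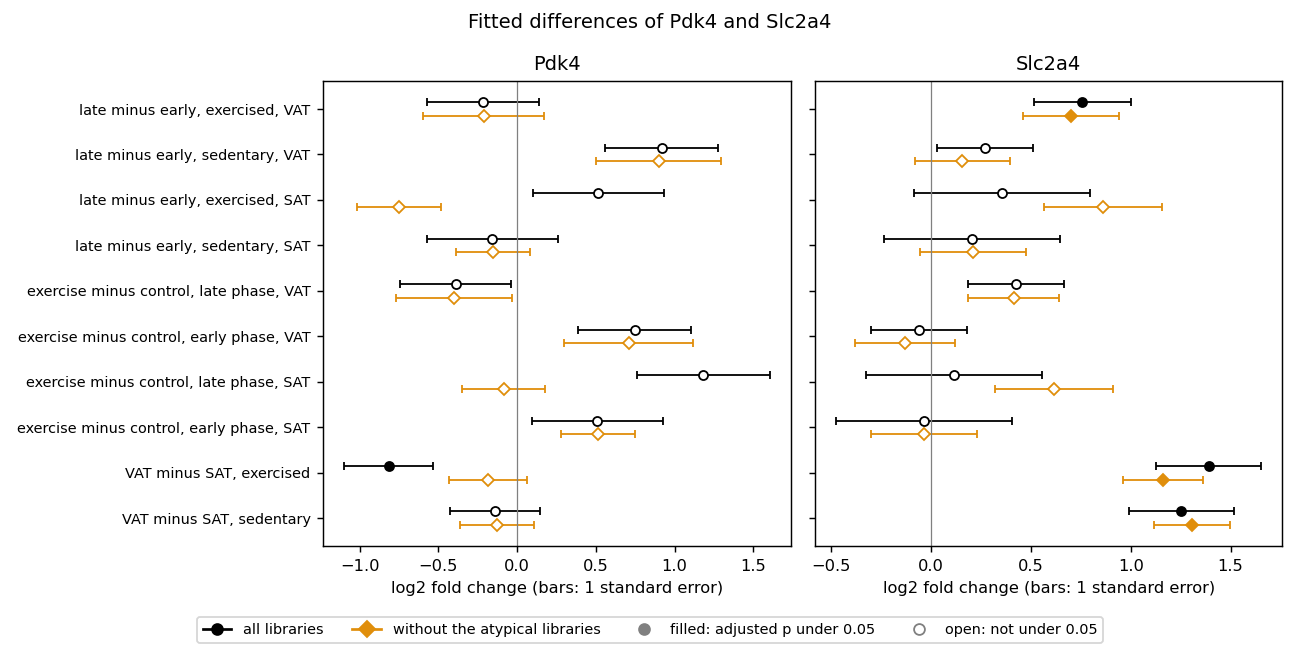
Log2 fold changes of Pdk4 (left) and Slc2a4 (right) with 1 standard error (horizontal axis) for the phase, exercise and depot comparisons (vertical axis), in all libraries (circles) and without the atypical libraries (diamonds). Filled marks have an adjusted p under 0.05; with all libraries these are Slc2a4 in both depot comparisons (1.39 and 1.25) and in late against early exercised VAT (0.76), and Pdk4 between the depots of exercised rats (-0.82).

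The exercise comparisons asked whether trained rats differed from sedentary rats of the same phase. Early exercise left neither member past the threshold. In VAT Pdk4 held 10.6, 20.5, 14.8, 17.3, 10.9 and 11.6 CPM in EAE, against 8.37, 11.6, 8.27, 7.54, 7.84 and 7.69 CPM in EAC. All 6 exercised libraries lay above the control median and 3 lay above every control, while control replicate 2 stood above the lower exercised libraries. The fitted ratio was 1.68 with a 95% interval from 1 to 2.81 (log2 0.75 ± 0.36 SE, unadjusted p = 0.0495, adjusted p = 1, edgeR). A fit of VAT EAE and EAC alone gave 0.74 ± 0.18 (unadjusted p = 0.00117, edgeR) and called 0 genes. In SAT Pdk4 was at 12, 34.3, 19.5, 23.1, 14.1 and 14 CPM in EAE and at 11, 16.9, 14.5, 10.6, 12.9 and 16.6 CPM in EAC. Again 3 exercised libraries lay above every control, and the ratio was 1.42 with an interval from 0.781 to 2.59 (log2 0.51 ± 0.42, adjusted p = 1, edgeR). Without the atypical libraries Pdk4 had a log2 difference of 0.51 ± 0.23 in SAT (unadjusted p = 0.0389) and 0.71 ± 0.41 in VAT (unadjusted p = 0.098), with adjusted p values of 1 (edgeR). Slc2a4 had a log2 difference of -0.06 ± 0.24 between EAE and EAC in VAT (95% interval -0.56 to 0.43) and -0.04 ± 0.44 in SAT (-0.95 to 0.88), each with an adjusted p of 1 (edgeR). In this phase 0% of all genes were called in VAT and 0% in SAT. Neither member was called by DESeq2 or limma voom in either depot.

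**Figure D4:**
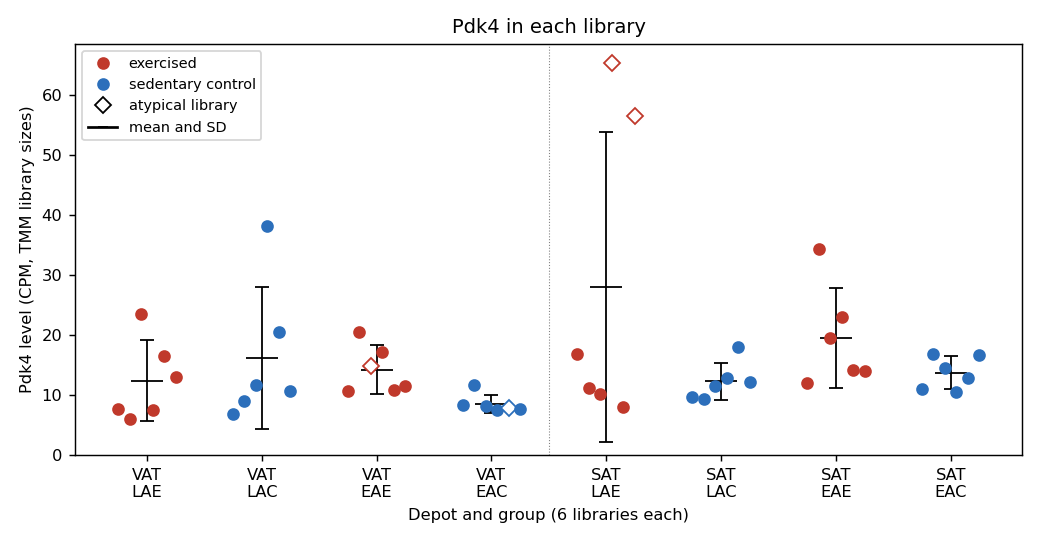
Pdk4 level in CPM (vertical axis) of each library, by depot and group (horizontal axis, 6 libraries each). Points are libraries, open diamonds are atypical libraries, and the bar is the mean with its SD; SAT LAE replicates 4 and 6 stand at 65.4 and 56.6 CPM, VAT LAC replicate 4 at 38.3 CPM and SAT EAE replicate 2 at 34.3 CPM.

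Late exercise gave a SAT difference for Pdk4 that rested on its atypical pair. Pdk4 stood at 16.8, 11.3, 10.3, 65.4, 8.02 and 56.6 CPM in SAT LAE, against 9.71, 9.37, 11.6, 12.9, 18 and 12.2 CPM in SAT LAC. Replicates 4 and 6 were the only LAE libraries above every control, and replicate 5 was below every control. With all libraries the log2 difference was 1.18 ± 0.42 (unadjusted p = 0.0101, adjusted p = 0.0658, edgeR), and DESeq2 called it (log2 1.19, adjusted p = 0.0281). Leaving out LAE replicate 2, 3 or 5 gave adjusted p values of 0.0303, 0.0324 and 0.0201 with edgeR, without LAE replicate 4 the log2 difference was 0.74 (adjusted p = 0.253), and without both atypical libraries it was -0.09 ± 0.26 (adjusted p = 0.887, edgeR). In this comparison 0 of 2 members were called by edgeR, where 11.5% of all genes were, and 0 of 2 by limma voom. Slc2a4 stood at 246, 458, 347, 42.8, 280 and 42.2 CPM in SAT LAE, against 193, 190, 246, 125, 257 and 292 CPM in SAT LAC. Replicates 2 and 3 lay above every control and the atypical pair below every control, with a log2 difference of 0.11 ± 0.44 (adjusted p = 0.884, edgeR) in all and 0.61 ± 0.29 without the pair (unadjusted p = 0.0493, adjusted p = 0.249, edgeR).

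In these SAT LAE libraries the members moved in opposite directions. Against the median of the typical SAT libraries, Pdk4 was 5.07-fold higher in replicate 4 and 4.38-fold higher in replicate 6, and Slc2a4 was 4.81-fold and 4.88-fold lower. Over 4-fold gains in both libraries were found for 6.01% of 14693 genes, and over 4-fold losses for 3.15%. The number of Slc2a4 counts for each Pdk4 count, which needs no scaling between libraries, was 0.655 and 0.747 there. In the other 46 libraries it ran between 6.55 in SAT EAE replicate 2 and 131 in VAT LAE replicate 2. The VAT libraries of the same numbers held 7.47 and 13 CPM of Pdk4, in LAE replicates 4 and 6. LAE replicate 4 was the 1 rat of 24 whose VAT and SAT libraries did not match each other best (r = 0.14 with its own number, against 0.29 with another). Which tissue or state these libraries hold was not tested, since no marker could be matched.

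In VAT late exercise left both members short of the threshold. Slc2a4 was at 686, 798, 744, 742, 825 and 479 CPM in LAE and at 522, 558, 510, 301, 639 and 651 CPM in LAC. Of the LAE libraries 5 lay above every control and replicate 6 lay below the control median. The fitted ratio was 1.34 with a 95% interval from 0.953 to 1.9 (log2 0.43 ± 0.24 SE, unadjusted p = 0.0881, adjusted p = 0.525, edgeR). Pdk4 was at 7.79, 6.1, 23.5, 7.47, 16.6 and 13 CPM in LAE and at 6.94, 9.03, 11.7, 38.3, 20.6 and 10.7 CPM in LAC. The groups overlapped, with a log2 difference of -0.39 ± 0.35 (adjusted p = 0.722, edgeR) in all and 0.07 without LAC replicate 4. Here 0% of all genes were called by edgeR, and neither member by DESeq2 or limma voom.

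Whether exercise acted differently by phase was tested for each depot. For Pdk4 in VAT the interaction was -1.14 ± 0.50 (log2, SE; unadjusted p = 0.034, adjusted p = 0.675, edgeR), with exercised over control at 0.75 in the early phase and -0.39 in the late phase. Without LAC replicate 4 it was -0.68 ± 0.42 (unadjusted p = 0.121, adjusted p = 0.999, edgeR). In SAT it was 0.67 ± 0.59 in the full set and -0.60 ± 0.35 once the atypical pair was left out (adjusted p = 0.568 and 0.569, edgeR). For Slc2a4 it was 0.49 ± 0.34 in VAT and 0.15 ± 0.62 in SAT (adjusted p = 0.818 and 0.921, edgeR). Without the atypical pair the Slc2a4 value in SAT was 0.65 ± 0.40 (unadjusted p = 0.117, adjusted p = 0.583, edgeR). No member passed with edgeR, DESeq2 or limma voom, and the edgeR test called 0% of all genes in either depot.

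Ordered by their medians, the Slc2a4 groups ran from VAT LAE, VAT LAC, VAT EAE and VAT EAC to SAT LAE, SAT LAC, SAT EAC and SAT EAE, so every VAT group stood above every SAT group. The Pdk4 order was SAT EAE, SAT LAE, SAT EAC, VAT EAE, SAT LAC, VAT LAC, VAT LAE and VAT EAC, between 16.8 and 8.06 CPM. In each order the ranges of all 7 neighbouring pairs overlapped. Both genes varied more among rats of a group than most genes did. The pooled SD of log2 CPM within groups was 0.63 for Pdk4 and 0.46 for Slc2a4 in VAT and 0.74 and 0.90 in SAT, against medians of 0.21 and 0.32 over all 14693 genes. Without the atypical libraries these were 0.66 and 0.45 in VAT and 0.42 and 0.51 in SAT, and 72.3% to 93.7% of genes still had a smaller SD.

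Slc2a4 deviated together in same-numbered libraries of the 2 depots, each pair taken as 1 rat. Deviations of log2 CPM from the group mean correlated between VAT and SAT over 24 rats with Pearson's r = 0.48 (permutation test within groups, two-sided, p = 0.0023, adjusted p = 0.0092 over 4 relations) and Spearman's rho = 0.50 (permutation p = 0.00794, adjusted p = 0.0318). Of the rats 15 lay on the same side of the group mean in both depots. Without the 2 rats farthest from the median in SAT, LAE replicates 4 and 6, r was 0.61 (adjusted permutation p = 0.0341) and rho 0.53 (adjusted permutation p = 0.0864). For Pdk4 the same relation was r = 0.07 (permutation p = 0.779, adjusted p = 0.779) and rho = 0.30 (permutation p = 0.216, adjusted p = 0.424), and r = 0.32 without those rats.

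The relation between the 2 genes within a depot passed in neither depot. In SAT Pdk4 and Slc2a4 deviations had r = -0.61 (permutation p = 0.0688, adjusted p = 0.138) and rho = -0.26 (permutation p = 0.318, adjusted p = 0.424). Without LAE replicates 4 and 6, which were also the 2 farthest in Pdk4, r was 0.34 (permutation p = 0.163) and rho 0.40 (permutation p = 0.0962), so the negative relation rested on those libraries. In VAT r was -0.25 (permutation p = 0.177, adjusted p = 0.237) and rho -0.11 (permutation p = 0.587, adjusted p = 0.587). Leaving out LAC replicate 4 and LAE replicate 3, the farthest in Pdk4 there, gave r = -0.05.

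**Figure D5:**
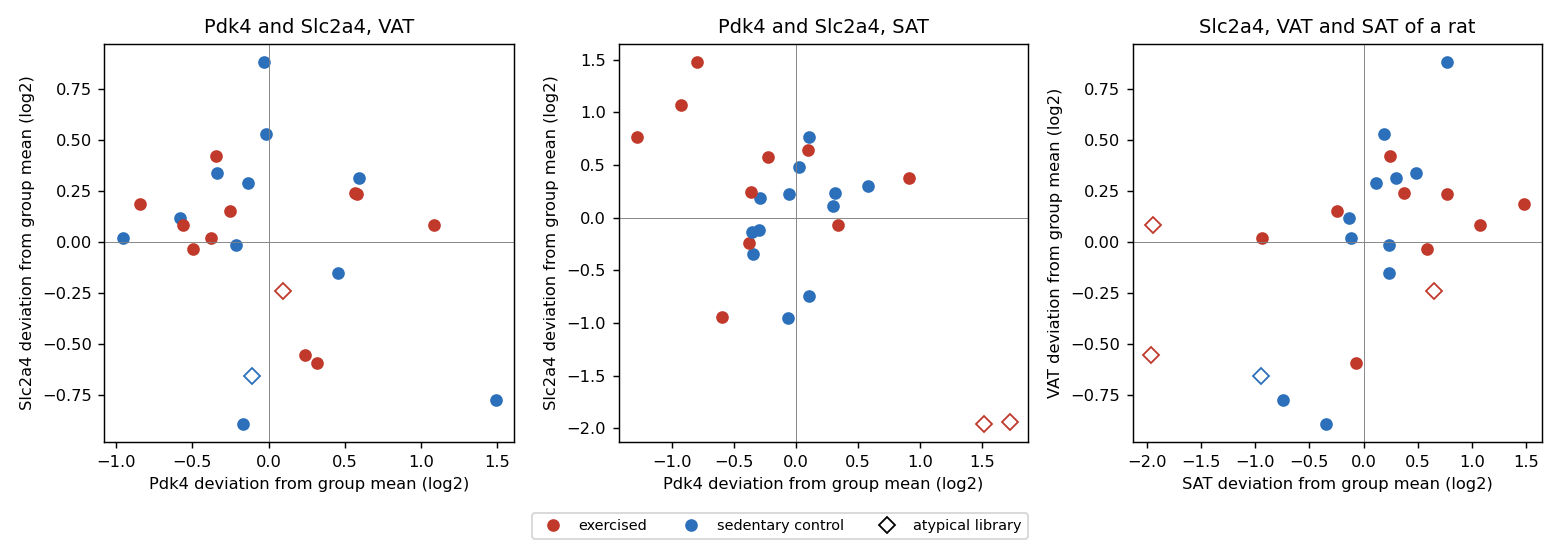
Deviations of log2 CPM from the group mean for each rat, with Slc2a4 against Pdk4 in VAT (left) and SAT (middle), and Slc2a4 in VAT against SAT (right); red points are exercised, blue points sedentary, and open diamonds have an atypical library. In the middle panel the atypical pair sits alone at the lower right (r = -0.61 with it, 0.34 without it), and in the right panel r = 0.48.

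Genes whose pattern was most like each member were sought among 10956 genes with a mean of at least 5 CPM, as a description over libraries that share depots and rats. Slc2a4 had close neighbours. The 5 nearest over the 48 libraries had r between 0.97 and 0.99 in log2 CPM, led by ENSRNOG00000006388 (0.99, and 0.98 without the atypical libraries). By deviations from the group means, averaged over the depots, ENSRNOG00000052802 was nearest (0.98, and 0.96 without them). Pdk4 had none as close, with 0.71 to 0.74 for its 5 nearest. They were led by ENSRNOG00000006738, at 0.74 with all libraries and 0.53 without the atypical ones. By deviations its nearest was ENSRNOG00000019120 (0.77 and 0.61). The Pdk4 neighbours turned over when the atypical libraries were left out: other genes then led, at 0.70 and 0.72, and 13 and 17 of the 50 nearest were shared. Over the 48 libraries, 1341 genes had an r over 0.7 with Slc2a4 and 5 with Pdk4, against 1415 and 1 without the atypical libraries. Between the members r was -0.50 with all libraries and -0.24 without the atypical ones, and 6.25% and 12.8% of genes had a lower r with Pdk4. The sources used here do not pair these IDs with gene names.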

How the data were processed

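PolyA-selected libraries were sequenced as 50-nt single-end reads from RNA with an integrity number over 9, per the labels' protocols. The deposited values are estimated counts per Ensembl gene, as whole numbers; the submitters' processing notes name Salmon 1.4.0 and build rn6. No source used here gives the annotation release or the summing to genes. Each column carries a library name that the labels also give.

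Tests used edgeR 4.0.16 (R 4.3.3): TMM scaling, filterByExpr, the quasi-likelihood F test and Benjamini-Hochberg adjustment over all genes, called under 0.05. The fits held the 4 groups of a depot (24 libraries; 13883 genes in VAT, 14372 in SAT) or all 8 groups (48 libraries, 14693 genes). The standard error is the log2 fold change over the square root of F. Log2 CPM used a prior count of 2. As alternatives the scaling was taken from DESeq2, or the low-count filter was dropped, or the test was replaced by that of DESeq2 1.42.0 or by voom in limma 3.58.1 with quality weights. Others fitted the compared groups alone, added a replicate block, or left out the atypical libraries or each library in turn. In the fits of both depots this block was the rat, which the main fits did not include. The fits were also run on simulated counts, drawn for each gene independently. No library that is atypical across genes was simulated, so the effect of such libraries was not covered. Correlations used 100000 permutations within groups.

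The labels give 6 rats a group for both depots, so same-numbered libraries of the 2 depots were checked for pairing. Genes that varied alike between depots, 34 to 51 of them, were chosen without the rat in question. Over these, all 24 rats had an r over 0.1 with their own number in the other depot. Of the rats 23 matched their own number best, and the exception was LAE replicate 4. The deviations were taken from group means that held the rat in question. Its values therefore followed from those of its group mates, which helped choose the genes, so a good match was partly built in. The check of the pairing was thus not an independent one. Over all genes 15 of 24 had an r over 0.1, and no r with other numbers was taken there. An r over 0.1 alone does not mark a pair. Over the chosen genes the best r with another number reached 0.83, in EAE replicate 4 (0.93 with its own). With that limit the numbers were taken as pairing the depots, from the data and not from a label, with LAE replicate 4 kept as a pair. The results for single rats and the correlations between depots rest on this pairing.

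The members and lists were chosen with earlier results of these data known. The 21 symbol-based gene and marker lists, and the rule that named genes by symbol, could not be applied, because 0 rows of the gene table carried an Ensembl ID. Both members are given in every comparison, and the nearest gene over all libraries, and that by the mean within-depot r of deviations, are named by their IDs.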

Additional observations from a re-analysis of the deposited data

Results flagged for a closer look

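Of the 16 sets of 6 libraries (2 genes in 8 groups), 1 held a library far from the rest, where chance alone gives about 1 in 20 groups. Pdk4 in VAT EAC replicate 2 stood at 11.6 CPM, while the other 5 early controls lay between 7.54 and 8.37 CPM. That library was not among the atypical ones. The atypical pair in SAT LAE was not singled out by this test, because each of its libraries lies close to the other.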

How the results depend on the processing

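Differences are log2 fold changes. Without the atypical libraries 3 SAT values of Pdk4 changed sign: late exercise against control (-0.0855), late against early in exercised rats (-0.75) and the interaction of exercise with phase (-0.60). Slc2a4 changed sign in the depot by phase (-0.0859) and depot by late exercise (-0.20) interactions, and the SAT correlation of the 2 genes became 0.34, as it did without the 2 rats farthest from the median. Limma voom with quality weights turned Slc2a4 for early exercise in SAT (0.0853) and the depot by late exercise interaction (-0.0228), and Pdk4 for late against early exercised SAT (-0.47) and for the SAT interaction (-0.19). In VAT it gave Pdk4 -0.0261 for late exercise and 0.48 for late against early sedentary rats. DESeq2's Wald test called Pdk4 for late exercise in SAT (1.19). The lower Pdk4 in VAT than in SAT of exercised rats was no longer called with limma voom (-0.28), with the replicate block (-0.63) or without the atypical libraries (-0.19). Beyond what follows from leaving libraries out, the cause was not tested.

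The replicate block within a depot joined same-numbered rats of different groups. Their median r was 0.06 in VAT and in SAT, against -0.004 and 0.005 for pairs with different numbers. The labels do not say whether they share more than a number. With this block Slc2a4 in SAT changed sign for late exercise (-0.11) and for the interaction (-0.0661). The block changed no call other than that of Pdk4 between the depots.

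Leaving out 1 library at a time moved Pdk4 between 0.74 and 1.38 for late exercise in SAT, between -0.67 and 0.066 in VAT, between -1.42 and -0.68 for the VAT interaction, between -0.96 and -0.59 for VAT against SAT in exercised rats, and between -0.0523 and 0.40 for the depot by phase interaction. It moved Slc2a4 between -0.18 and 0.15 for early exercise in SAT, -0.20 and 0.15 in VAT, -0.19 and 0.34 for late exercise in SAT, -0.15 and 0.38 for the SAT interaction, and 0.65 and 0.85 for late against early exercised VAT. Of 198 member values under the other alternatives, 181 kept their direction and their side of 0.05.

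The number of all genes called for late exercise in SAT was 1654, and 2718 with DESeq2, 298 with limma voom, 385 with the block, 310 without the atypical libraries and 0 in a fit of the 2 groups. For sedentary SAT it was 463, and 772, 2849, 1241 and 1671 with DESeq2, limma voom, without the atypical libraries and with 2 groups. For exercised SAT it was 2492, and 1339 and 383 with limma voom and 2 groups. Sedentary VAT had 1575, and 2398 with limma voom. The depot by phase interaction had 1004, and 520 with the block and 480 without the atypical libraries. Where edgeR called 0 genes, DESeq2 called 3 for early exercise in SAT, 33 for late exercise in VAT, 183 and 2 for the SAT and VAT interactions and 172 for depot by late exercise; limma voom called 200 for late exercise in VAT and 1 for the SAT interaction, which had 4 without the atypical libraries. Leaving out 1 library gave 257 (without LAE replicate 4) to 3067 (without LAE replicate 5) for late exercise in SAT, 1500 (without LAE replicate 6) to 3410 for exercised SAT, 264 to 463 for sedentary SAT, 522 (without VAT EAE replicate 3) to 1615 (without SAT LAE replicate 2) for depot by phase, 0 to 672 (without SAT LAE replicate 2) for depot by late exercise, 0 to 36 for late exercise in VAT and 0 to 37 for the SAT interaction.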
